A study of Rattus norvegicus with 6 samples.

Results

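The 60 genes described here carry out nuclear and cell division: mitotic kinases and their activators, the anaphase-promoting complex, the chromosomal passenger complex, spindle kinesins and other spindle proteins, central spindle and midbody proteins, contractile ring and abscission proteins, and the chromosome genes Top2a and Mki67. They were chosen by name from a count table of 43035 features, and 59 of the 60 names had a row. Spag5 had more than 1 row, which gave 60 rows in all. The expression of Ccnb2 is not analysed here, and only its promoter is counted below. Of these rows 39 had enough counts to be tested, 9 had a few counts and 12 had none. The RNA came from cardiomyocytes of newborn Sprague-Dawley rats (postnatal day 1), grown in primary culture and transfected with a scrambled siRNA (si-NC, 3 libraries) or with an siRNA against DYRK1A (si-DYRK1A, 3 libraries), and was collected 48 h after transfection. DYRK1A is a protein kinase, and the study asked how its loss acts on the cell cycle of cardiomyocytes. The cells were separated from other heart cells by differential attachment only, so each library is a mixed culture, and no group was left without siRNA.

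Division of a cell runs in stages that use different proteins. Cyclin B and Cdk1 start mitosis together with the Polo and Aurora kinases, the spindle kinesins build and shape the spindle, and the anaphase-promoting complex then marks cyclin B and securin for destruction. The chromosomal passenger complex corrects attachments at centromeres and moves at anaphase to the central spindle, where Ect2 and its partners turn on RhoA, the contractile ring closes, and the midbody is cut. After birth, heart muscle cells of rodents often complete karyokinesis, the division of the nucleus, without cytokinesis, the division of the cell, and become multinucleated. The comparison below therefore sets genes for the spindle and the passenger complex beside genes for cytokinesis.

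Many of these genes are known to share promoter elements that confine transcription to G2 and M phase: CCAAT boxes, bound by NF-Y, and the cell cycle genes homology region (CHR), bound by the DREAM and MuvB complexes. Promoters were taken from the RefSeq table for the rat assembly GRCr8, which covers 250 bases before to 50 bases after each start site, and 53 of the 60 members were matched, 2 of them by a synonym (Sept7 and Sept9). Aurkb, Incenp, Tpx2, Kif14, Ube2c, Ccna2 and Racgap1 had no entry. The following 150 bases upstream of the start are shown for members that differ in role and in response, with capitals marking each complete match to CCAAT or to a CHR motif (TTTGAA or TTCGAA) on either strand. The first stretches belong to a spindle kinesin, a spindle protein, the mitotic kinase, the activator of the anaphase-promoting complex, a central spindle protein and a topoisomerase, and the last belongs to an abscission gene that holds neither motif.
Kif22 (GRCr8 chr1:191080879-191081028, reverse strand): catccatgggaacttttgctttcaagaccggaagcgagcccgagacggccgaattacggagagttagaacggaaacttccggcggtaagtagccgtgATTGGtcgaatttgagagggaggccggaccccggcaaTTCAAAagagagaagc
Hmmr (GRCr8 chr10:25665216-25665365, reverse strand): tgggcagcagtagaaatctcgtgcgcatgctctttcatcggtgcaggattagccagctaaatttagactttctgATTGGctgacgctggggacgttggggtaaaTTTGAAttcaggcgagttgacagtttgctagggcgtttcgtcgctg
Cdk1 (GRCr8 chr20:19265143-19265292, forward strand): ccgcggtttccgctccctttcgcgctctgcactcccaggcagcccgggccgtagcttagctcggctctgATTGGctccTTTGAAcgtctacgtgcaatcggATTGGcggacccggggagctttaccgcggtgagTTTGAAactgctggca
Cdc20 (GRCr8 chr5:137255800-137255949, reverse strand): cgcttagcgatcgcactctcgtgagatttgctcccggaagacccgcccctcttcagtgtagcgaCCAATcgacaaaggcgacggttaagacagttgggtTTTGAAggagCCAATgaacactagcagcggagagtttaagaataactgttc
Ect2 (GRCr8 chr2:111966627-111966776, reverse strand): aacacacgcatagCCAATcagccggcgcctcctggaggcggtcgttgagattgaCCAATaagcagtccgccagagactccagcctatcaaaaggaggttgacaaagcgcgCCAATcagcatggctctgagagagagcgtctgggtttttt
Top2a (GRCr8 chr10:84473094-84473243, reverse strand): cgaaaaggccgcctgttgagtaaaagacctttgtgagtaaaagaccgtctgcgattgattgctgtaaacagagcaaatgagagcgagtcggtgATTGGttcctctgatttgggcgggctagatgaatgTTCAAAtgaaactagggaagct
Pdcd6ip (GRCr8 chr8:122524994-122525143, reverse strand): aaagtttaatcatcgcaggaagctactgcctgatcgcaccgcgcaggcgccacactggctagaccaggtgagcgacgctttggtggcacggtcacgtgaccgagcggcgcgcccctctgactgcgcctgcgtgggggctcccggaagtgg

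In Kif22, Cdk1 and Top2a the last CHR match began at positions -16, -16 and -22 from the start site, each with a CCAAT box upstream of it. A further CHR match of Ect2 began at position -3 and runs past the printed stretch. CCAAT was found in 36 of the 53 member promoters (67.9%) and in 37.5% of the 33469 promoters of the table, and a CHR motif in 34 (64.2%) and 19.7%. Both motifs stood together in 27 member promoters (50.9%) and in 7.95% of all promoters. Of the 22 members called higher below that had an entry, 11 (50%) held both, about the share of all members. The printed stretches therefore do not stand for a link between motifs and response. Kif18a, Kif18b and Haus6, called higher, held neither, and Cks1b, Fbxo5 and Bora, not called, held both. E2F motifs (TTCCCGC or TTGGCGC, either strand), some of which overlap a CCAAT match as in Ect2, were found in 10 member promoters (18.9%) and in 6.26% of all. By role, 8 of 9 central spindle and midbody genes held a CHR motif, whereas 2 of 6 contractile ring and abscission genes did (Rock1 and Sept9) and 0 of those 6 held both motifs. CCAAT was found in 2 of the 6 (Sept7 and Myh10). The share of 33.3% for each motif was near that of all promoters for CCAAT and above it for CHR. A gene with several start sites was counted if any of them held the motif. These are matches of letters in a fixed window and describe the promoters without showing binding.

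**Figure D1:**
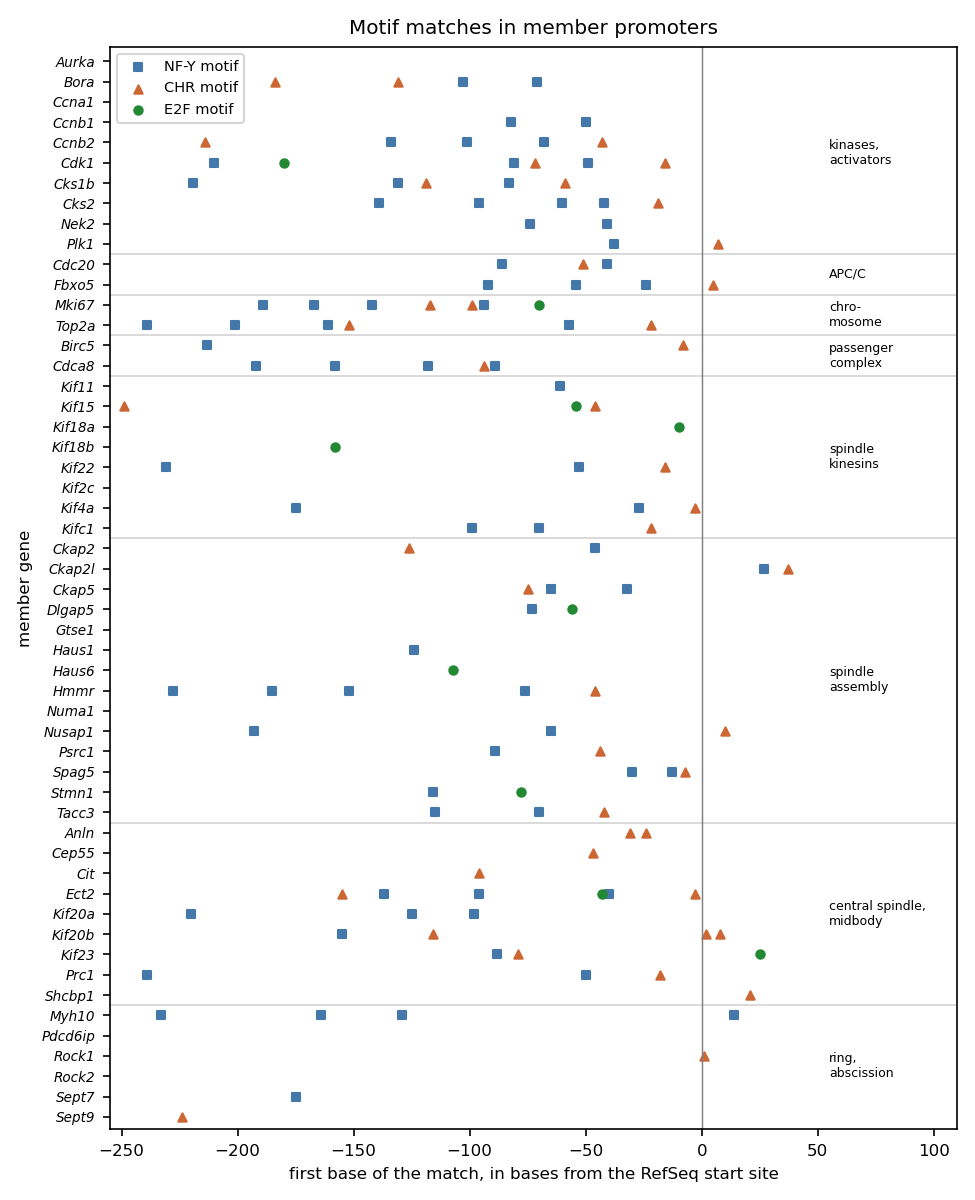
Position of each match to the NF-Y (CCAAT), CHR and E2F motifs in the promoters of the 53 members with a RefSeq entry, in bases from the start site, with genes grouped by role. Matches to NF-Y and CHR crowd the 150 bases before the start in most roles. Of the 6 contractile ring and abscission genes at the bottom, 2 hold CCAAT (Myh10 with 4 matches) and 2 hold a CHR motif.

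The libraries held 10325074 to 11921772 counts, and values are given as CPM, counts scaled to a common library size with TMM factors. The member rows took 0.437% to 0.446% of the counts in si-NC and 0.501% to 0.518% under the si-DYRK1A label. Dyrk1a, the gene targeted by the siRNA, had 3, 0 and 1 counts in si-NC and 2, 1 and 0 counts under the si-DYRK1A label on its own row. An unannotated transcript over it stood at 77.7 ± 3.22 CPM in si-NC and 82.4 ± 2.70 CPM under the si-DYRK1A label (SD, n = 3). Its log2 fold change was 0.08 (adjusted p = 0.374 in edgeR). Whether this unannotated row measures the mRNA of the target is not known. These counts therefore do not show a lower level of the target and cannot decide whether it was lowered. Groups are named by their labels. The paper reports knockdown of the target protein by immunoblot in neonatal rat cardiomyocytes given an siRNA against it. Protein was not measured in the libraries described here. Two-sided tests were made with edgeR across all 15513 features with enough counts, and adjusted p-values cover all of them. The labels call the libraries biological replicates without giving the cultures they came from.

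Of the 39 tested members, 27 were higher and 2 were lower under the si-DYRK1A label, and 10 did not pass the threshold of 0.05. Across all tested features, 8.03% were called higher and 7.19% lower. The median log2 fold change was 0.36 over the tested members and 0.002 over all tested features. In 29 tested members all libraries labelled si-DYRK1A lay above all si-NC libraries, and in 3 (Sept9, Pdcd6ip and Rock1) all lay below. Over all tested features these orders were seen in 16.2% and 15.3%. The changes were moderate in size: the members called higher ranged from 0.19 (Myh10) to 0.60 (Nek2) on the log2 scale, and the median over every feature called higher was 0.40. Gtse1 passed the filter although 2 of its si-NC libraries had 4 and 6 counts. In these bulk libraries, more dividing cells and more RNA of these genes per cell cannot be told apart.

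**Figure D2:**
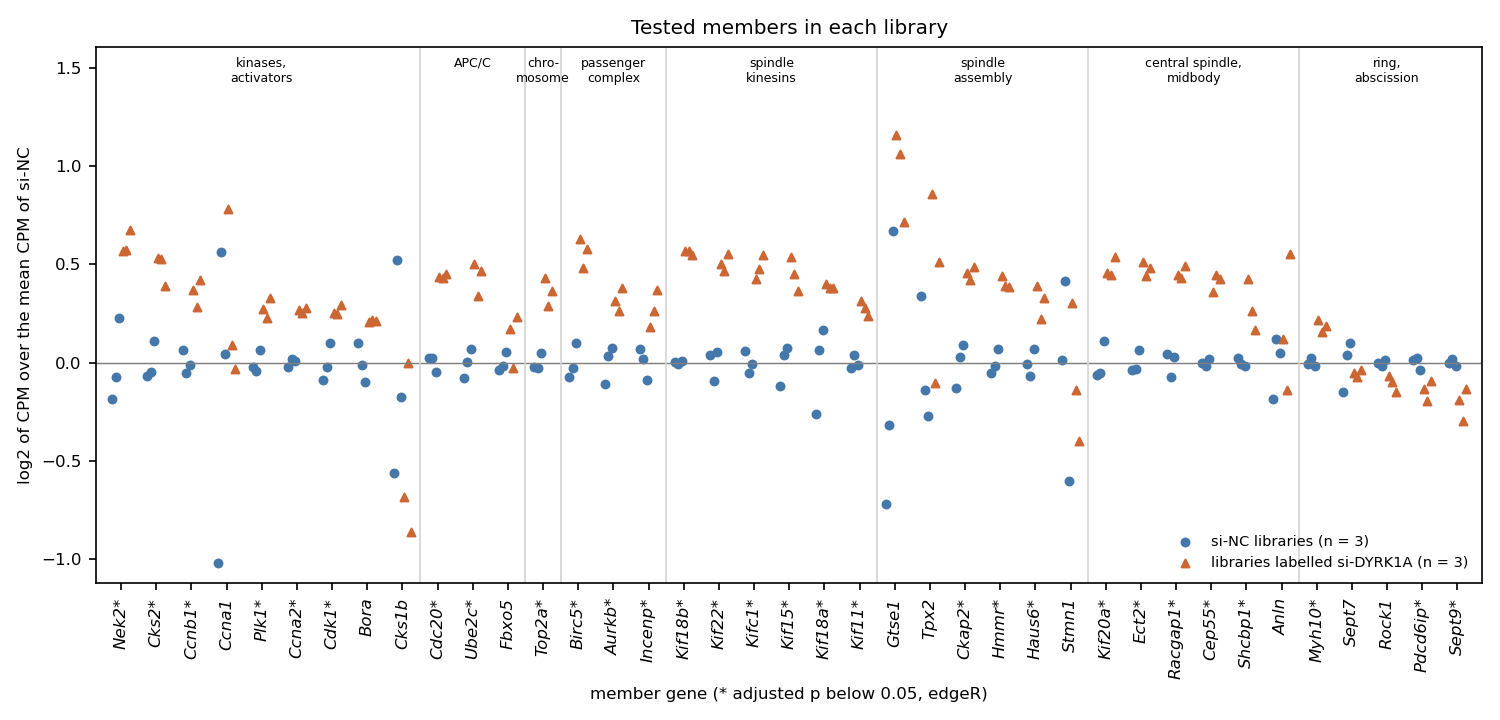
Level of each tested member in each library, as the log2 of its CPM over the mean CPM of the 3 si-NC libraries, by role. The triangles of the libraries labelled si-DYRK1A lie above the circles of si-NC for 29 of the 39 members, and among the contractile ring and abscission genes Sept9, Pdcd6ip and Rock1 lie below and Myh10 lies above. Members with under 5 CPM (Ccna1, Cks1b, Gtse1, Tpx2, Stmn1 and Anln) scatter widely.

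Among the mitotic kinases and their activators, 6 of 9 tested members were higher, with a median log2 fold change of 0.28. Nek2, a kinase that separates the centrosomes, changed most in this role, from 36.0, 38.8 and 47.7 CPM in si-NC to 60.5, 60.7 and 65.2 CPM under the si-DYRK1A label, a log2 fold change of 0.60 (SE 0.088) with an adjusted p of 9.94e-05. Cks2, a small subunit that binds Cdk1, stood at 57.1, 58.0 and 64.6 CPM in si-NC and 86.6, 86.3 and 78.5 CPM under the si-DYRK1A label, a change of 0.48 (SE 0.065) on the log2 scale. In both genes the groups were well apart, and si-NC 3 was the highest of the controls. An unannotated transcript on the opposite strand spans all of Cks2, with 241 to 304 counts per library, and was not called. The use of strand in counting is not given, so reads of this pair may be mixed. Cyclin B1 (Ccnb1) rose from 114, 105 and 108 CPM to 141, 132 and 146 CPM, by 0.36 (SE 0.053) on the log2 scale. Its partner Cdk1, the kinase that drives entry into mitosis, went from 122, 128 and 139 CPM to 155, 154 and 159.5 CPM, with a log2 fold change of 0.26 (SE 0.052). Cyclin A2 (Ccna2), which acts from S phase to early mitosis, went from 104, 107 and 106 CPM to 127, 126 and 128 CPM, with a log2 fold change of 0.26 (SE 0.048). The cyclin A2 replicates lay close together, and the gap between groups was wider than their spread. Polo-like kinase 1 (Plk1, chromosome 1, 192115966 to 192125989, forward strand of Rnor_6.0), which acts from mitotic entry to cytokinesis, stood at 101, 99.5 and 107 CPM in si-NC and 124, 119.9 and 129 CPM under the si-DYRK1A label, a log2 fold change of 0.28 (SE 0.052). Adjusted p-values of these 6 genes ran from 1.99e-05 to 0.00118. Bora, the cofactor with which Aurora A activates Plk1, did not pass (log2 fold change 0.21, 95% interval 0.04 to 0.38, adjusted p = 0.087) although its groups did not overlap. Ccna1, an A-type cyclin known mainly from the germline, and Cks1b were near 1 CPM with wide intervals of -0.60 to 1.21 and -1.33 to 0.37.

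Of the genes of the anaphase-promoting complex, its activator Cdc20 and its ubiquitin-conjugating enzyme Ube2c were higher. Cdc20 (chromosome 5, 137260739 to 137265015, reverse strand) rose from 134, 134 and 128 CPM to 178, 178 and 180.3 CPM, with a log2 fold change of 0.44 (SE 0.047) and an adjusted p of 8.01e-07. Ube2c rose from 63.3, 66.9 and 69.9 CPM to 94.3, 84.5 and 92.1 CPM, by 0.44 (SE 0.061) on the log2 scale (adjusted p = 3.31e-05). Fbxo5, which inhibits the complex before mitosis, stood at 33.2, 33.7 and 35.3 CPM in si-NC and 38.3, 33.4 and 40.0 CPM under the si-DYRK1A label. Its groups overlapped, since si-DYRK1A 2 lay among the controls, and its difference of 0.13 (95% interval -0.04 to 0.30) did not pass. Top2a, the topoisomerase that untangles sister chromatids, went from 311, 309.5 and 327 CPM to 425, 386 and 406 CPM, a log2 fold change of 0.36 (SE 0.046) with an adjusted p of 8.85e-06.

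All 3 tested genes of the chromosomal passenger complex were higher, with a median of 0.32. Birc5 (survivin; chromosome 10, 106856097 to 106864413, forward strand), which targets the complex to centromeres, changed most, from 46.6, 48.1 and 52.6 CPM to 75.9, 68.6 and 73.4 CPM (log2 fold change 0.56, SE 0.068, adjusted p = 5.11e-06). Aurkb (chromosome 10, 55626741 to 55634991, forward strand), the kinase of the complex, went from 71.6, 79.0 and 81.3 CPM to 96.0, 92.8 and 100.5 CPM (log2 fold change 0.32, SE 0.059, adjusted p = 0.000666). Incenp, the scaffold that binds and activates Aurora B, went from 106, 102 and 94.7 CPM to 114, 121 and 130.2 CPM (log2 fold change 0.27, SE 0.058, adjusted p = 0.00221). The fitted changes of the subunits were unequal, and the log2 ratio of Birc5 to Incenp was -1.18, -1.08 and -0.85 in si-NC and -0.59, -0.82 and -0.83 under the si-DYRK1A label, groups that did not overlap but whose nearest libraries were close. Incenp was called with counts but not with limma on log2(FPKM + 1), where FPKM are length-scaled values (adjusted p = 0.0661). Cdca8 (borealin), the remaining subunit, had 0 counts in every library, and so did the unannotated transcript over it.

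Each of the 6 tested spindle kinesins was higher, with a median log2 fold change of 0.47. Kif18b, which shortens astral microtubules, showed the tightest groups, with 43.4, 43.1 and 43.6 CPM in si-NC and 64.4, 64.3 and 63.4 CPM under the si-DYRK1A label, and changed by 0.56 (SE 0.065). Kif22 (chromosome 1, 198461169 to 198476476, reverse strand), a chromokinesin that pushes chromosome arms away from the poles, rose from 109, 99.5 and 110.2 CPM to 151, 147 and 156 CPM, by 0.51 (SE 0.052) with an adjusted p of 5.95e-07. Kifc1, a minus-end motor that focuses the poles, rose from 93.0, 86.0 and 88.8 CPM to 120.1, 124 and 131 CPM, by 0.49 (SE 0.053). For each of these motors the gap between the groups was wider than the spread within either of them. Kif15, which helps keep the spindle bipolar, rose from 41.0, 45.8 and 46.8 CPM to 64.7, 60.8 and 57.3 CPM (log2 fold change 0.45, SE 0.073). Kif11 (chromosome 1, 256035866 to 256088299, forward strand), the main motor that pushes the poles apart, rose less, from 108, 113 and 109.5 CPM to 137, 134 and 130.0 CPM (log2 fold change 0.28, SE 0.049, adjusted p = 0.000407). Kif18a, which aligns chromosomes, stood at 15.1, 18.9 and 20.2 CPM in si-NC and 23.8, 23.4 and 23.5 CPM under the si-DYRK1A label (log2 fold change 0.38, SE 0.11, adjusted p = 0.0178). Kif18a was the least certain of them: si-NC 1 was its lowest library, leaving that library out gave an adjusted p of 0.114, leaving out si-DYRK1A 1, 2 or 3 gave 0.0607, 0.0606 and 0.0536, and DESeq2 gave 0.0729. Kif2c and Kif4a had at most 3 counts in any library and were not tested.

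Of the other spindle assembly genes, 3 of 6 tested were higher, with a median of 0.43 (0.40 without Gtse1). Ckap2, which nucleates and stabilises spindle microtubules, had the highest level per length of the tested spindle genes, 58.4 FPKM in si-NC, and rose from 137, 153 and 159 CPM to 206, 200.4 and 209.7 CPM (log2 fold change 0.45, SE 0.053, adjusted p = 3.20e-06). Hmmr, a spindle protein that also binds hyaluronan, rose from 60.8, 62.4 and 66.1 CPM to 85.6, 82.8 and 82.4 CPM (log2 fold change 0.40, SE 0.059, adjusted p = 5.07e-05). Haus6, a subunit of the augmin complex that branches microtubules, rose from 32.4, 31.0 and 34.2 CPM to 42.7, 37.9 and 40.9 CPM (log2 fold change 0.32, SE 0.079, adjusted p = 0.00838). In these 3 genes no library of one group reached the other. Gtse1, Tpx2 and Stmn1 were counted at 25 reads or fewer per library and did not pass: their log2 fold changes were 0.96 (SE 0.45), 0.49 (SE 0.37) and -0.05 (SE 0.41). Tpx2 activates Aurora A, and Stmn1 destabilises microtubules. Their intervals, -0.28 to 1.25 and -0.90 to 0.80, leave a change of the size seen in the kinesins undetectable at these counts. Gtse1, Tpx2 and Stmn1 all lie under an unannotated transcript, described below, so few counts need not mean a low level of the gene.

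The cytokinesis genes are described by stage. Of the central spindle and midbody genes, 5 of 6 tested were higher, with a median of 0.43. Kif20a, the kinesin that carries the passenger complex to the central spindle, rose from 118, 119 and 134 CPM to 169.8, 168 and 179 CPM (log2 fold change 0.48, SE 0.054, adjusted p = 1.73e-06). Ect2 (chromosome 2, 112769385 to 112831476, reverse strand), the exchange factor that turns on RhoA at the cell equator, rose from 57.7, 57.9 and 61.9 CPM to 84.3, 80.2 and 82.7 CPM (log2 fold change 0.48, SE 0.060, adjusted p = 7.81e-06). Racgap1 (chromosome 7, 141277312 to 141307233, reverse strand), a subunit of centralspindlin that recruits Ect2, rose from 40.1, 37.0 and 39.6 CPM to 53.0, 52.5 and 54.8 CPM (log2 fold change 0.46, SE 0.071, adjusted p = 9.41e-05). These 3 genes moved by almost the same amount on the log2 scale, with overlapping intervals. Cep55, which brings the abscission machinery to the midbody, rose from 39.8, 39.4 and 40.4 CPM to 51.2, 54.3 and 53.6 CPM (log2 fold change 0.41, SE 0.069, adjusted p = 0.000246). Shcbp1, a midbody protein that binds centralspindlin, rose from 40.9, 40.1 and 39.9 CPM to 54.2, 48.3 and 45.3 CPM (log2 fold change 0.29, SE 0.077, adjusted p = 0.0126). The Shcbp1 values under the si-DYRK1A label were spread, and without si-DYRK1A 1, its highest library, the adjusted p was 0.0933. The own row of Anln, which links RhoA, actin and myosin, held 20 to 37 counts per library and did not pass (log2 fold change 0.21, 95% interval -0.38 to 0.79). Anln was counted in this role, though it could also be placed with the contractile ring genes.

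Of the 5 tested contractile ring and abscission genes, only Myh10 was higher, 2 were lower, and the median was -0.10. Myh10 (chromosome 10, 55275411 to 55406732, forward strand), the heavy chain of non-muscle myosin IIB, was the member with the highest level per length, 140.3 FPKM in si-NC, and rose from 1072, 1096 and 1063 CPM to 1251, 1199 and 1223 CPM (log2 fold change 0.19, SE 0.039, adjusted p = 0.00207). Sept9 (chromosome 10, 106264434 to 106348490, forward strand), a septin that scaffolds the ring and midbody, fell from 97.0, 98.7 and 96.2 CPM to 85.4, 79.3 and 88.5 CPM (log2 fold change -0.20, SE 0.055, adjusted p = 0.0139). Pdcd6ip (ALIX), which recruits ESCRT-III for abscission and also serves endosomal sorting, fell from 454, 457 and 438 CPM to 410.4, 393 and 421 CPM (log2 fold change -0.14, SE 0.043, adjusted p = 0.0289). Both decreases were small: si-DYRK1A 2 was the lowest library in each, and without it the adjusted p was 0.119 for Sept9 and 0.178 for Pdcd6ip. Without si-NC 1, si-NC 2 or si-DYRK1A 1 Pdcd6ip did not pass either (adjusted p = 0.104, 0.0525 and 0.0688), and limma on log2(FPKM + 1) gave 0.0531 for Sept9 and 0.0822 for Pdcd6ip. Rock1, a RhoA effector kinase that activates myosin, stood at 312, 308 and 315 CPM in si-NC and 297, 291 and 281 CPM under the si-DYRK1A label. Its groups did not overlap, but its difference of -0.10 (95% interval -0.19 to -0.02) had an adjusted p of 0.111, and 0.0401 with scaling by library size only. Sept7, the septin found in every septin filament, did not differ detectably (log2 fold change -0.05, 95% interval -0.17 to 0.06). Sept9 has an unannotated transcript on the opposite strand with nearly equal counts, 1024, 1223 and 1143 in si-NC and 988, 918 and 1033 under the si-DYRK1A label, and since the use of strand in counting is not given, reads of this pair cannot be told apart with certainty.

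**Figure D3:**
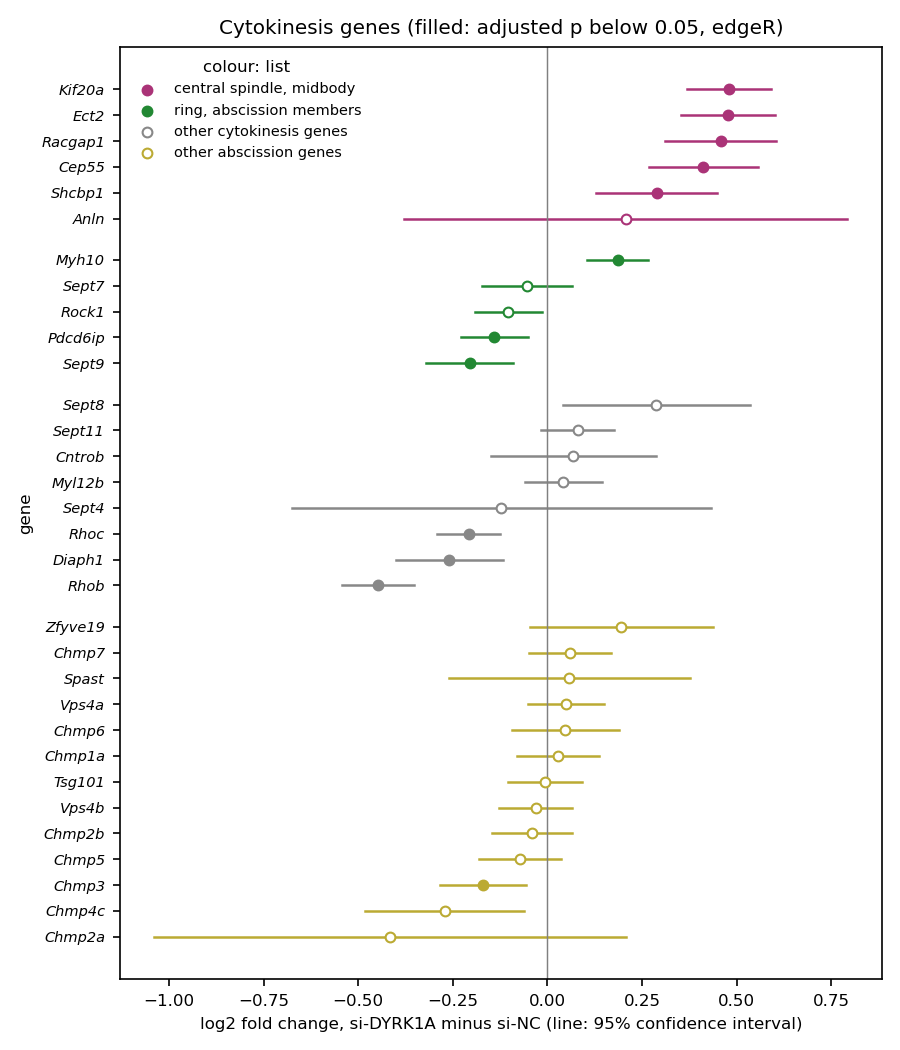
Log2 fold change (si-DYRK1A minus si-NC) with its 95% confidence interval for the tested cytokinesis members and for the other cytokinesis and abscission genes, where a filled point passed the adjusted p threshold of 0.05 in edgeR. Central spindle and midbody genes lie at 0.21 to 0.48, Myh10 at 0.19, Sept9 and Pdcd6ip below 0, and Rhoc, Diaph1, Rhob and Chmp3 are filled below 0.

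Set side by side, the spindle and passenger genes and those of the central spindle had similar mean differences between the groups. The ring and abscission genes had a mean difference slightly below 0. The first set is not confined to karyokinesis: the passenger complex also acts at the central spindle, and the paper used Aurkb as a cytokinesis marker. The 12 tested kinases, activators and anaphase-promoting complex genes are in none of these sets. Their mean log2 level, relative to si-NC, was 0.32, 0.28 and 0.26 in si-DYRK1A 1, 2 and 3. The mean log2 level of the 15 tested spindle and passenger genes, relative to si-NC, was 0.49, 0.37 and 0.40 in si-DYRK1A 1, 2 and 3, and between -0.044 and 0.037 in the si-NC libraries. Gtse1 is one of the 15, has the largest log2 fold change of the tested members (0.96, not called) and passed the count filter mainly through the libraries labelled si-DYRK1A. Without it, an alternative added after the values were seen, the mean of the other 14 was 0.45, 0.32 and 0.38. The 6 tested central spindle and midbody genes stood at 0.39, 0.32 and 0.44. The difference between these sets was 0.10, 0.05 and -0.04, so its sign changed between libraries, and 0.062, 0.0072 and -0.056 without Gtse1. The 5 ring and abscission genes stood at -0.044, -0.100 and -0.046, which left a gap of 0.53, 0.47 and 0.45 to the spindle and passenger genes (0.49, 0.42 and 0.43 without Gtse1) and of 0.43, 0.42 and 0.48 to the central spindle genes. In the si-NC libraries the corresponding gaps were between -0.029 and 0.033. Single pairs of genes, picked from these same sets, illustrate the gap and are no separate evidence for it. The log2 ratio of Racgap1 to Rock1 was -2.96, -3.06 and -2.99 in si-NC and -2.49, -2.47 and -2.36 under the si-DYRK1A label. That of Ect2 to Myh10 was -4.21, -4.24 and -4.10 and then -3.89, -3.90 and -3.89. Single genes did not all follow the means of their sets: the log2 ratio of Ect2 to the spindle kinesin Kif11 was -0.91, -0.97 and -0.82 in si-NC and -0.70, -0.74 and -0.65 under the si-DYRK1A label, so this central spindle gene stood 0.20 higher relative to the kinesin, with no overlap. These sets are small and were chosen with results known, so the gaps are given as a description with no test. The gaps also depend on how genes were placed. Anln was counted with the central spindle genes by its low own row, and the transcript over it, described below, is in none of these means. Across the 39 tested members, the fold change showed little relation to the level per length in si-NC (Spearman's correlation -0.13) or to gene length (-0.02). These points share the same libraries. Without the ring and abscission genes the correlation with level was 0.12 (34 members). The tested ring and abscission genes had 51.0 to 140.3 FPKM in si-NC, and the central spindle and midbody genes 0.63 to 42.1 FPKM. Role and level therefore cannot be told apart in the contrast of ring and central spindle genes. The tested spindle genes had 0.24 to 58.4 FPKM and the passenger genes 17.4 to 55.9 FPKM. They overlapped the ring genes only at their upper end, so role and level are poorly separated there too.

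**Figure D4:**
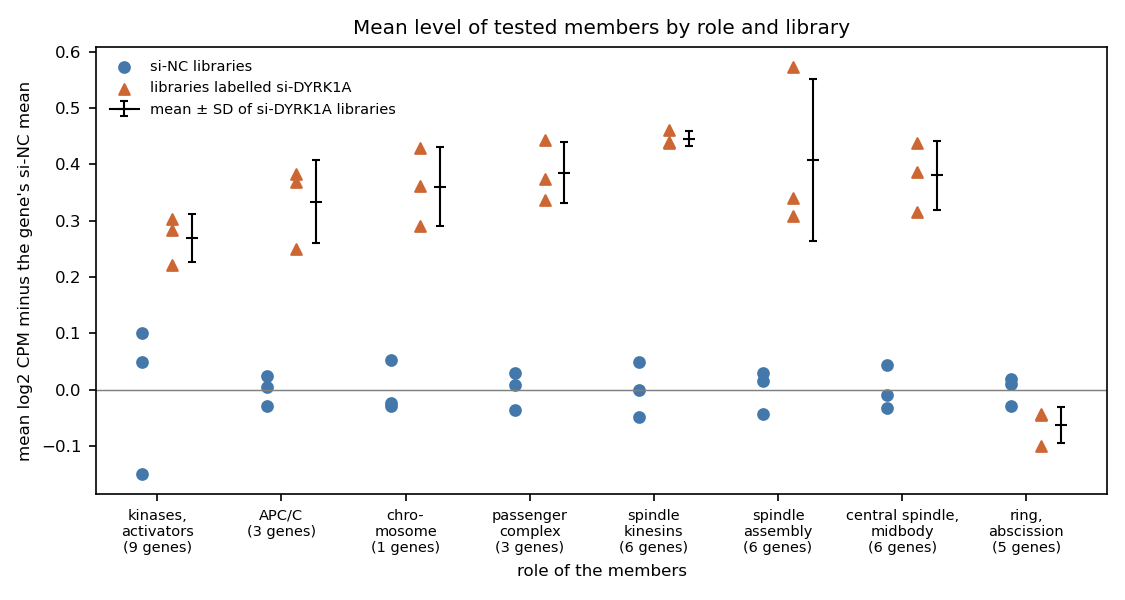
Mean over the tested members of each role of the log2 CPM minus the gene's si-NC mean, for each of the 6 libraries, with the mean ± SD of the libraries labelled si-DYRK1A. The contractile ring and abscission genes are the role whose triangles (-0.100 to -0.044) lie below 0, and the spindle kinesins have the narrowest spread, 0.44 to 0.46.

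The libraries did not contribute equally. Among the 27 members called higher, si-NC 3 was the highest control in 18 and si-NC 1 the lowest in 14, and si-DYRK1A 2 was the lowest of its group in 17. Of the 29 called members, 25 passed the threshold without any 1 of the 6 libraries, and the others were Shcbp1, Sept9, Pdcd6ip and Kif18a.

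Many members that could not be tested lie under transcripts that the authors' annotation step added without a gene name. Of the 21 untested rows, 20 were covered for at least 50% of their length by such a transcript on the same strand, and Haus1 was the exception. Aurka, Cdca8, Kif14, Dlgap5, Prc1, Tacc3, Ckap2l, both Spag5 rows, Haus1, Cit and Mki67 had 0 counts on their own rows in all libraries, which for a single library allows up to 0.252 to 0.291 CPM. Kif2c, Kif4a, Kif20b, Kif23, Nusap1, Ckap5, Numa1, Rock2 and Psrc1 had between 0 and 13 counts per library. A row at 0 therefore does not show that a gene was silent. Of the 39 tested rows, 8 (Incenp, Tpx2, Cks1b, Gtse1, Stmn1, Anln, Sept7 and Sept9) were covered in the same way. The transcripts over Tpx2 and Stmn1 had 0 counts in every library, and that over Gtse1 had at most 1. For the others, reads could have been split between both rows. How reads that fit both rows were counted is not given. The transcripts over Incenp (log2 fold change 0.08), Sept9 (-0.22) and Sept7 (-0.81, 95% interval -1.45 to -0.17) did not pass. That over Incenp also overlaps Best1 and Fads2, so its reads cannot be assigned to Incenp.

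Several of the covering transcripts were higher under the si-DYRK1A label. The transcript over Anln (chromosome 8, 23336439 to 23397076, reverse strand) rose from 53.3, 49.8 and 55.4 CPM in si-NC to 72.6, 70.6 and 71.9 CPM under the si-DYRK1A label (log2 fold change 0.44, SE 0.064, adjusted p = 4.75e-05), with the groups well apart. The transcript over Ckap2l, a spindle protein, rose from 10.2, 12.3 and 10.2 CPM to 15.7, 14.3 and 14.8 CPM (log2 fold change 0.45, SE 0.12, adjusted p = 0.0158). That over Mki67, the source of the proliferation marker Ki-67 and a coat of mitotic chromosomes, rose from 10.7, 9.13 and 9.78 CPM to 12.2, 12.6 and 13.8 CPM (log2 fold change 0.39, SE 0.13, adjusted p = 0.0497). The groups did not overlap for either, but the Mki67 call sits at the threshold and was lost on leaving out any 1 of the 6 libraries (adjusted p = 0.0524 to 0.197). The Ckap2l call was lost without si-NC 1, si-NC 3, si-DYRK1A 1 or si-DYRK1A 3 (adjusted p = 0.0504 to 0.0699). The transcript over Tacc3, which links spindle microtubules together with Ckap5 and clathrin, rose from 1.82, 1.52 and 2.09 CPM to 4.13, 3.58 and 3.03 CPM (log2 fold change 0.98, SE 0.27, adjusted p = 0.0142), though it also covers SNORA18 and lost its call without si-NC 2 (adjusted p = 0.058) or si-DYRK1A 1 (0.0745).

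Lower values were found over other untested members. The transcript over Cit (chromosome 12, 46334688 to 46494159, reverse strand), the citron kinase that stabilises the midbody, fell from 4.41, 4.65 and 5.94 CPM to 2.73, 3.20 and 2.77 CPM (log2 fold change -0.79, SE 0.22, adjusted p = 0.0167), and this rests on 31 to 71 counts per library. The transcript over 1 of the Spag5 rows, which also covers RGD1307929, fell from 27.4, 22.7 and 25.6 CPM to 20.9, 20.2 and 17.7 CPM (log2 fold change -0.37, SE 0.10, adjusted p = 0.0166), and its reads cannot be assigned to Spag5 (astrin). The groups did not overlap in either case, and the call was lost without si-NC 3, si-DYRK1A 1 or si-DYRK1A 3 for Cit (adjusted p = 0.0625 to 0.087) and without si-NC 1 or si-DYRK1A 3 for Spag5 (0.0967 and 0.104). The transcripts over Aurka (log2 fold change 0.02, 95% interval -0.44 to 0.48), Kif14 (0.29, 95% interval -0.07 to 0.66) and Ckap5 with SNORD67 (0.08, 95% interval -0.09 to 0.25) did not pass. The transcript over Aurka, the centrosomal Aurora kinase, stood at 3.84, 4.23 and 4.01 CPM in si-NC and 5.19, 3.67 and 3.38 CPM under the si-DYRK1A label. Its groups overlapped. These values need not give the level of Aurka, whose own row was at 0. For Cdca8, Kif2c, Kif4a, Kif23, Nusap1, Dlgap5, Psrc1 and the remaining Spag5 row the covering transcript had 0 counts as well, and for Prc1, which bundles the central spindle, it had at most 4. When the counts of a member and of covering transcripts that overlap no other gene were added, 45 members could be tested. Of these 30 were higher and 3 lower, and the median of the cytokinesis genes was 0.29 in place of 0.21. Such sums may still miss reads of a member, since the counting of reads that fit both rows is not given.

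**Figure D5:**
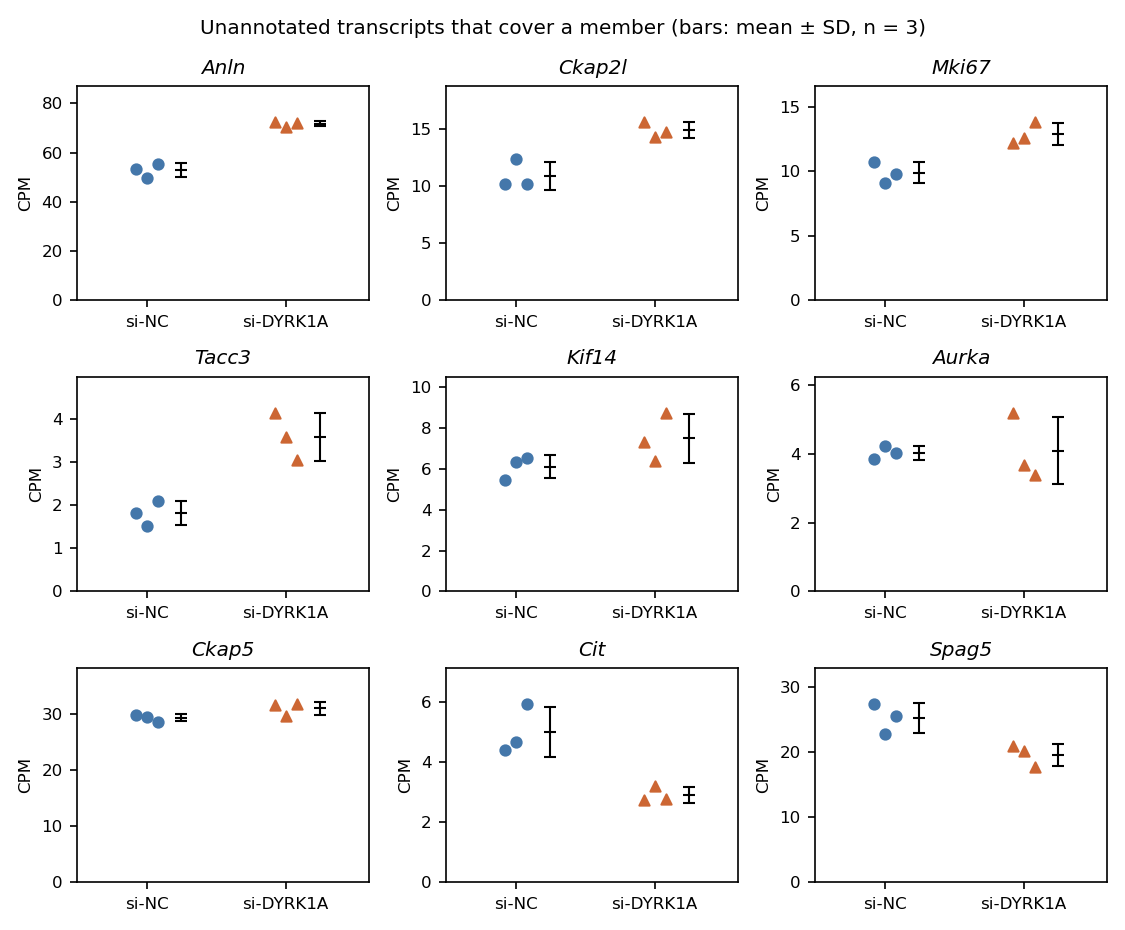
CPM of unannotated transcripts on the same strand that cover a member with no test of its own (Anln, tested on its own row at about 2 CPM, is included), for each library with the mean ± SD of each group (n = 3). Points over Anln, Ckap2l, Mki67 and Tacc3 are higher under the si-DYRK1A label without overlap, those over Cit and Spag5 are lower, and those over Kif14 and Aurka overlap.

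Of 100 further genes of the same processes, 44 could be tested, 8 were higher and 6 lower, and the median log2 fold change was 0.037, beside 8.03% higher, 7.19% lower and a median of 0.002 over all tested features. Among 11 other spindle genes, Aspm, a pole protein (log2 fold change 0.36), the centrosomal kinesin Kif24 (0.51), gamma-tubulin (Tubg1, 0.29) and the plus-end protein Mapre1 (0.16) were higher, and Tacc1 (-0.36) was lower. Among 12 other genes of mitotic control, Plk4, which starts centriole duplication, rose from 57.5, 56.6 and 61.5 CPM to 88.4, 78.3 and 93.2 CPM (log2 fold change 0.57, SE 0.068, adjusted p = 4.35e-06). Wee1, the kinase that restrains Cdk1 (log2 fold change 0.29), Plk2 (0.26) and Cdc16 (0.18), a subunit of the anaphase-promoting complex, were also higher, and the stress-responsive Plk3 was lower (-0.55). The other 4 tested subunits of that complex did not pass, with log2 fold changes of -0.06 (Anapc1), 0.05 (Anapc4) and -0.01 (Anapc10). For Anapc11, counted at 13 to 41 reads per library, the log2 fold change of 0.57 (SE 0.30) was as large as in called members, and its 95% interval reached down to -0.06.

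Among the other genes of cytokinesis, 3 of 8 tested were lower and the other 5 did not pass, where 7.19% of all tested features were lower. Rhob, a small GTPase that regulates actin, fell from 503, 519.8 and 498 CPM to 352, 368 and 395 CPM (log2 fold change -0.45, SE 0.046, adjusted p = 5.66e-07). Its relative Rhoc fell from 529, 523 and 524 CPM to 443, 464 and 457 CPM (log2 fold change -0.21, SE 0.041, adjusted p = 0.00104). Diaph1, a formin that assembles actin downstream of RhoA, fell from 61.3, 64.9 and 57.5 CPM to 49.9, 52.1 and 51.6 CPM (log2 fold change -0.26, SE 0.068, adjusted p = 0.0113). These genes also serve adhesion and the cytoskeleton outside division. Of 13 tested abscission genes, 1 was called, a share near that over all features: the ESCRT-III subunit Chmp3 was lower (log2 fold change -0.17, adjusted p = 0.0374), while the ATPases Vps4a (0.05) and Vps4b (-0.03) and Tsg101 (-0.01) were near 0. Rhoa, Myh9, Myh14, Myl9, Myl12a, Diaph3, Sept2, Sept10 and Arhgap11a had 0 counts on their own rows, so the ring could be followed only in part. Among the called genes of these lists, Mapre1, Tubg1, Kif24, Cdc16, Diaph1 and Chmp3 lost their calls on leaving out 2, 4, 3, 3, 1 and 4 of the 6 libraries in turn, with adjusted p-values up to 0.0754, 0.0995, 0.0629, 0.109, 0.0533 and 0.222.

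Markers of cell types moved alongside. The summed CPM of the cardiomyocyte list was 8500 to 9348 in si-NC and 10946 to 11812 under the si-DYRK1A label, almost all of it from Nppa (log2 fold change 0.37) and Actn2 (0.31), which were higher, while Tnnt2 stood near 10 CPM and was not called. Of its 9 rows, 5 were at 0 counts (Myh6, Myh7, Tnni3, Myl2 and Mybpc3), and each of these genes was covered by an unannotated transcript with counts, of which none was called. Myh6 and Myh7 share a transcript that also overlaps other genes, and that over Tnni3 overlaps another gene. Reads of these transcripts cannot be assigned to a single gene. The fibroblast list summed to 21259 to 25999 CPM in si-NC and 19969 to 20723 CPM under the si-DYRK1A label, a difference that lay in Col1a1, at 14341 ± 1917 CPM in si-NC and 11113 ± 196 CPM under the si-DYRK1A label (SD, n = 3 each). Col1a1 was not called (log2 fold change -0.37, adjusted p = 0.0869 in edgeR), but was without si-NC 2 or without si-NC 3 (adjusted p = 7.22e-05 and 0.00177). Postn was higher (log2 fold change 1.10), and Tcf21 (0.14), Dcn (0.25) and Col3a1 (0.02) were not called. A low unannotated transcript over Dcn was called higher (9 to 42 counts per library, log2 fold change 1.00, adjusted p = 0.0311 in edgeR). Pdgfra and Ddr2 were at 0 on their own rows, and the transcripts covering them held 93 to 120 and 5303 to 6499 counts per library and were not called (log2 fold change -0.15 and -0.12). That over Pdgfra also overlaps another gene. The endothelial list summed to 163 to 179 CPM and 130.4 to 137 CPM, with Tek (log2 fold change -0.75), Tie1 (-0.43) and Cdh5 (-0.31) lower among 5 tested. The smooth muscle list, with Acta2 and Myh11 at 0, summed to 556 to 563 CPM and 545 to 569 CPM, with neither tested gene called. The macrophage list summed to 178 to 197 CPM and 167 to 194 CPM, with Cd68 at 0. Cd163, a scavenger receptor of macrophages, was higher (4.12, 4.99 and 4.52 CPM in si-NC and 6.60, 10.9 and 7.53 CPM under the si-DYRK1A label, log2 fold change 0.87, adjusted p = 0.00415, and 0.0624 without si-DYRK1A 2). The other 4 tested genes of that list were not called, with log2 fold changes of -0.21 (Ptprc), -0.19 (Mrc1), -0.13 (Csf1r) and 0.15 (C1qa). The part of these cell types in the higher levels of the mitotic genes was not tested.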

How the data were processed

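RNA-seq of 6 libraries was analysed, 3 labelled si-NC and 3 labelled si-DYRK1A, with groups and replicate numbers from the sample labels. HISAT2 was used by the authors to map reads to Rnor_6.0. Raw counts were deposited for each gene and for transcripts that carry no gene name, beside FPKM values, which the authors scaled by gene length and library. How reads were counted (tool, annotation, strand) is not given in the sources used here. Bowtie 0.12.2 and a mouse build stand in the submitters' processing notes, whereas the identifiers are those of rat genes. The labels name a TruSeq kit and the paper another. Other deposited columns hold gene lengths, positions and names (per the file headers), and 0 columns of other samples were present.

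Counts were tested by quasi-likelihood in edgeR 4.0.16 (R 4.3.3) on all 15513 features that passed filterByExpr (minimum count 10, total 15), with TMM normalization, a robust fit and two-sided p-values adjusted by the Benjamini-Hochberg method (threshold 0.05). Standard errors and 95% intervals come from that fit, and mean log2 levels by role use a prior count of 2. Unannotated transcripts were matched to members by position with GenomicRanges 1.54.1 (same strand, at least 50% covered). For a single value the smallest p of the exact permutation test is 0.1 in this design. The chi-square per degree of freedom between replicates was 2.65 to 6.48, so every pair differed by more than sampling noise.

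In simulated counts for this comparison (15513 genes, 200 changed, 3 simulations), edgeR recovered 72% of genes changed by 1 and 34.7% of those changed by 0.5 on the log2 scale, and 5.09% of calls were false. The changed genes were drawn over all levels, and were far fewer than the 1245 higher and 1115 lower calls in the data. These shares therefore do not give the recovery for the members. Intervals for zero counts cover counting error only.

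The members and lists were chosen with earlier results of these data known. Values in every library are given for members called by the test or central to a role. Other members are given by ranges, and other pathway genes are named where called or, chosen after their values were seen, as examples of genes not called. Alternatives were RLE and library-size scaling, DESeq2 1.42.0, no count filter, a minimum of 10 counts per library, a replicate block, leaving out each library, and counts summed with covering transcripts. Limma 3.58.1 was also run on log2(FPKM + 1) and log2(FPKM + 0.1), keeping genes that exceeded an FPKM of 0.5 in 3 or more libraries, and on log2(FPKM + 1) with no such filter.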

Additional observations from a re-analysis of the deposited data

How the results depend on the processing

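Under RLE or library-size scaling, DESeq2, other count filters and summed counts, 26 to 30 members were higher and 2 or 3 lower. Limma gave 24 higher on log2(FPKM + 1) and on log2(FPKM + 0.1), and 17 on log2(FPKM + 1) without a filter, and 0 lower with each of these 3. Replicate numbers did not pair the libraries (correlations of same-numbered deviations 0.058, -0.026 and -0.0041), and with the replicate block 27 members were higher and 1 lower, Pdcd6ip being lost (adjusted p = 0.0607). Leaving out each library gave 25 to 27 higher and 0 to 2 lower members. The median of the spindle genes was 0.40 on log2(FPKM + 1), 0.26 without its filter, and 0.40 to 0.47 on leaving out libraries. That of the passenger genes was 0.29 to 0.35 on leaving out libraries. That of the cytokinesis genes was 0.10 without the count filter and 0.039 on unfiltered log2(FPKM + 1), where untested low rows entered, 0.29 with summed counts, and 0.18 to 0.30 on leaving out libraries. Signs turned for the low rows of Stmn1 (-0.05, and 0.22 without si-NC 2, 0.10 without si-DYRK1A 3, range -0.29 to 0.22) and Anln (0.21, and -0.0046 without si-DYRK1A 3, highest 0.35). Few counts limited the low rows: the 6 tested members with at most 37 counts per library had 95% intervals wider than 1 on the log2 scale. Of these, all but Ccna1 lay under an unannotated transcript.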
